A study of Drosophila melanogaster with 6 samples.

Results

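The Niemann-Pick genes of Drosophila melanogaster are the 10 genes of the Npc1 and Npc2 families, chosen by name: Npc1a and Npc1b, and Npc2a to Npc2h. All 10 were found among the 15682 gene identifiers of the count files by the FlyBase identifiers that carry these symbols today. They were compared between midguts of virgin females and midguts of virgin males, with 3 libraries of each sex. By the labels, the flies of both sexes were 15 days old, of the white-eyed strain w1118, and were kept at 29 °C. The names of the deposited files of both sexes also carry the letters ESG, which the labels do not explain, so the genotype is given here as the labels state it. Each library was made from 30 pooled dissected midguts, so a library is a pool and no single fly was measured. The comparison of the sexes asks which of these genes differ in transcript level, and at what level each is present.

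Insects cannot make sterols and depend on those in their food, and the midgut is where these are absorbed. Npc1 proteins are large membrane proteins with a sterol-sensing domain that move sterols across the membranes of endosomes and lysosomes. Npc2 proteins are small soluble proteins that bind a sterol in the lumen and hand it to an Npc1 protein. In humans, loss of either partner makes cholesterol pile up in lysosomes, as Niemann-Pick disease type C. The fly has several Npc2 genes where mammals have a single one.

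Within the family the genes lay on several chromosome arms. Npc1a (FBgn0024320) and Npc2a (FBgn0031381) lay on 2L, Npc1b (FBgn0261675) on X, and the other 7 genes on 3R. Npc2e (FBgn0051410), Npc2d (FBgn0037782) and Npc2c (FBgn0037783) followed each other on 3R with no other protein-coding gene between them, and so did Npc2g (FBgn0039800) and Npc2h (FBgn0039801). Npc2b (FBgn0038198) and Npc2f (FBgn0039154) stood alone on that arm. Exons came to 651 to 922 bases in the Npc2 genes, to 3971 bases in Npc1b and to 5198 bases in Npc1a. In the current annotation an antisense RNA gene covers 611 of the 661 exon bases of Npc2e, and another covers 414 of the 708 exon bases of Npc2c. Neither antisense gene has a row in the count files, and how the counting treated strand is not given in the sources used here, so reads of these antisense RNAs and of Npc2e and Npc2c cannot be told apart.

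The libraries held 23825935 to 33278485 counts in females and 30600544 to 38406746 counts in males. Enterocyte markers were abundant in every library, with 7 of 7 listed genes summing to 45800 to 55440 CPM in females and 42870 to 49630 CPM in males (CPM is a gene's share of the library's counts, scaled with TMM factors). Most of this sum came from the digestive enzyme genes betaTry, Jon65Aiv and Amy-p, while nub stood at 94.5 to 133 CPM over the libraries. Male replicate 3 stood apart in markers of neighbouring organs: the 3 accessory gland genes listed summed to 19.1 CPM and 3 of 4 testis genes, with Mst84Da at 0, to 3.33 CPM there, against at most 0.0829 CPM of the accessory gland genes and 0.427 CPM of the testis genes in any other library. The 6 visceral muscle genes were not low, and summed to 416 to 1056 CPM in females and 545 to 1084 CPM in males. The 3 yolk protein genes reached 265.9 CPM in female replicate 1. The fat body, haemocyte and ovary germline genes listed were low. The 4 fat body genes summed to 0.249 to 10.3 CPM in females and 1.31 to 6.32 CPM in males, nearly all from to, with Lsp1alpha and Fbp1 at 0 counts throughout. This sum rests almost wholly on 1 gene, so it does not show how much fat body was present. The 5 haemocyte genes summed to 7.75 to 13.3 CPM in females and 9.38 to 10.3 CPM in males, mostly from srp and Pxn, with He at 0. The 3 ovary germline genes reached at most 0.238 CPM in females and 0.469 CPM in males, with bam at 0. In midgut as a bulk tissue, fewer cells of a type and less RNA per cell cannot be told apart.

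A few Npc2 genes stood far above the rest of the family. Levels of different genes are given in CPM per kilobase of exon, which corrects for their lengths, and their means ran from 0.160 to 496 in females and from 0.608 to 579 in males. Npc2d and Npc2f led. Npc2d stood at 496 ± 98.0 CPM per kb in females and 536 ± 247 in males, and Npc2f at 435 ± 65.1 in females and 579 ± 158 in males (n = 3 each, ± SD). On this scale Npc2d lay above 97.6% of the 8573 tested genes with a known exon length in females and 97.6% in males, and Npc2f above 97.4% in females and 97.7% in males. Npc2e came next at 227 ± 22.7 CPM per kb in females and 92.8 ± 41.7 in males, and then Npc1b at 94.0 ± 1.68 in females and 76.8 ± 21.3 in males. Npc2a, the gene closest to mammalian NPC2, was at 42.0 ± 4.99 CPM per kb in females and 47.6 ± 10.7 in males.

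The other 5 genes were much less abundant. Npc2b was at 10.1 ± 3.12 CPM per kb in females and 10.1 ± 1.52 in males, and Npc1a at 8.18 ± 1.02 in females and 8.14 ± 1.28 in males, close to the middle of these tested genes (49.5% of them lay lower in females and 50.1% in males). Npc2c, Npc2g and Npc2h did not exceed 5.80, 2.61 and 1.03 CPM per kb in any library. In both sexes the libraries of Npc2d and Npc2f overlapped, as did those of Npc2b and Npc1a, of Npc2c and Npc2g, and of Npc2g and Npc2h. Within libraries, Npc2d lay above Npc2f in 3 of 3 female libraries and Npc2f above Npc2d in 2 of 3 male libraries, and Npc2g lay above Npc2h in 2 of 3 female and 3 of 3 male libraries. In females, the steps between Npc2f, Npc2e, Npc1b and Npc2a were each free of overlap. In males, Npc2e and Npc1b overlapped, and so did Npc1b and Npc2a.

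**Figure D1:**
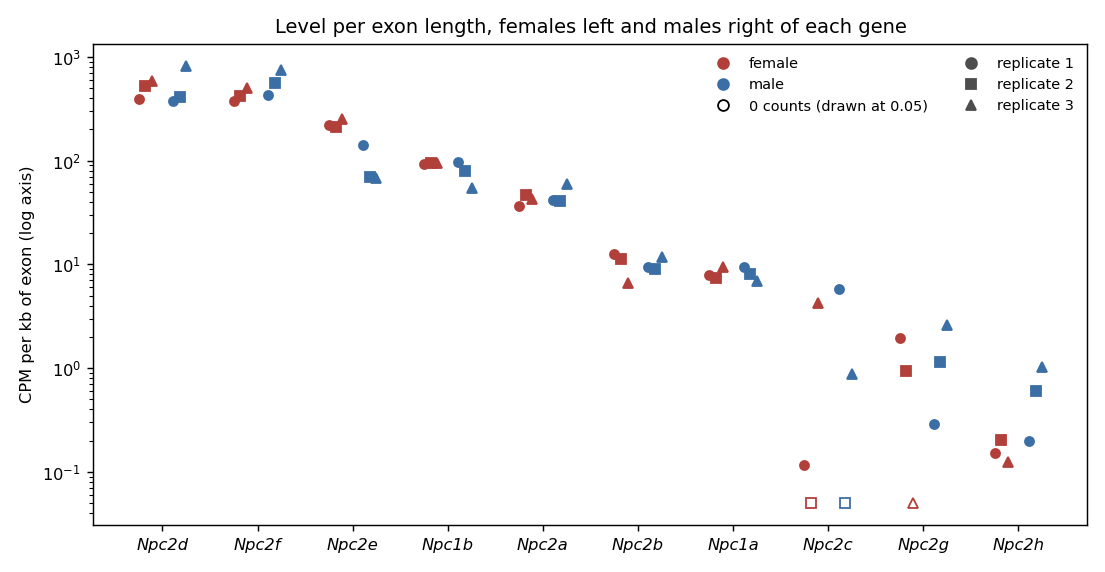
Level of each gene in CPM per kilobase of exon (log axis), 1 symbol per library, with females left and males right of each gene name and genes ordered by the female mean. Npc2d and Npc2f led in both sexes; open symbols mark libraries with 0 counts, drawn at 0.05.

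Of the 9 genes that passed the filter on low counts, 1 was higher in females and 0 were lower. A gene counted as higher or lower at a Benjamini-Hochberg adjusted p under 0.05 over all 8941 tested genes, in edgeR's quasi-likelihood test. Of all tested genes 3.87% were higher in females and 5.53% were lower, together 9.39%, against 11.1% of the members, so the count of 1 does not set the family apart from other genes. By each of edgeR, DESeq2 and limma-voom, 0 of the 9 were lower in females also at an unadjusted p under 0.05. The median log2 fold change, female over male, was -0.11 over the 9 genes and -0.021 over all tested genes. Below, ± after a log2 fold change is its standard error.

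**Figure D2:**
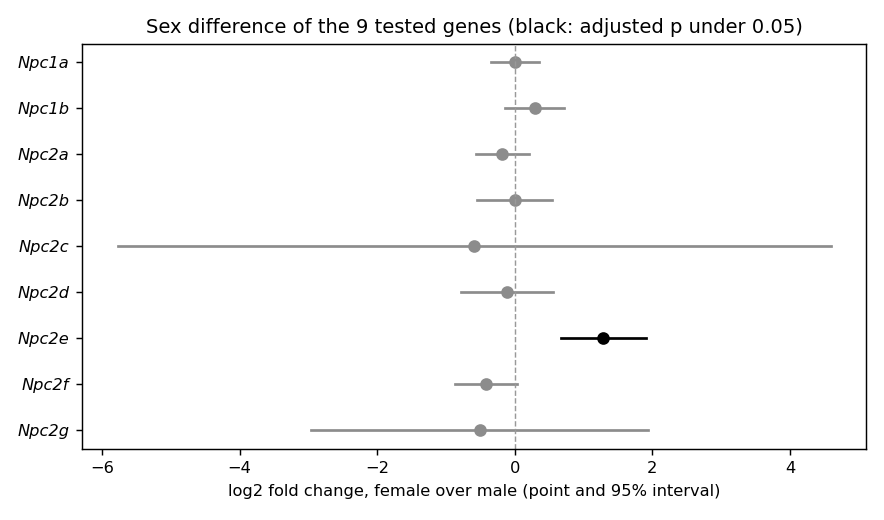
Log2 fold change, female over male, of the 9 tested genes (points) with 95% intervals from the edgeR fit. Npc2e, in black, is at 1.29 and its interval lies wholly above 0; the intervals of the other 8 genes, in grey, include 0, and those of Npc2c and Npc2g are wide.

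The gene higher in females was Npc2e, which codes for a secreted protein reported to bind bacterial cell wall components as well as belonging to the sterol-binding family. Npc2e had 144, 139 and 167 CPM in female replicates 1 to 3, against 93.2, 46.0 and 44.9 CPM in male replicates 1 to 3. Every female library lay above every male library, and male replicate 1 stood above the other two male libraries. The means were 150 ± 15.0 CPM in females and 61.4 ± 27.6 CPM in males, a log2 fold change of 1.29 ± 0.27 (2.44-fold, 95% interval of the log2 value 0.67 to 1.90, edgeR adjusted p = 0.0174). It was the only one of the 9 genes whose libraries did not overlap between the sexes, as was the case for 26.2% of all tested genes, 12.4% with females higher and 13.8% with females lower. An antisense RNA gene covers 611 of the 661 exon bases of Npc2e, and its reads cannot be told apart from those of Npc2e here.

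The call on Npc2e depended on which libraries were used. Without male replicate 3 the log2 fold change was 1.11 ± 0.29 and the edgeR adjusted p was 0.0593, and without female replicate 3 they were 1.20 and 0.0749. Without male replicate 1 they were 1.74 and 0.000158. Over all 13 alternatives the adjusted p ranged from 1.02e-05 in DESeq2 to 0.0749, and the direction was the same in each. Among the 7 enterocyte marker genes, Amy-p was called lower in females (log2 -0.75, edgeR adjusted p = 0.0345) and 0 were called higher. Uncalled, betaTry and Jon65Aiv had log2 fold changes of 0.25 and 0.37. Among the other marker lists, 0 of the 3 copper cell region genes were called. Their sum was higher in females, at 478 to 527 CPM against 410 to 446 CPM in males. The sum of the 6 enteroendocrine genes was lower, at 307 to 353 CPM in females against 414 to 464 CPM in males. Of these 6 genes, Tk and AstA were called lower (edgeR adjusted p = 0.0335 and 0.0384) and 0 were called higher. NPF had a log2 fold change of 0.007. The 3 yolk protein genes summed to 47.6 to 265.9 CPM in females and 1.59 to 10.3 CPM in males, and the 3 stem cell and enteroblast genes to 14.2 to 15.8 CPM in females and 17.2 to 18.2 CPM in males. Within the stem cell list Delta alone was lower in females (log2 -1.03, edgeR adjusted p = 0.04), while klu had a log2 fold change of -0.03 and E(spl)mbeta-HLH of 0.10. The part of these cell types and proteins in the difference of Npc2e was not tested.

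Its neighbour Npc2d, a highly abundant member of the same cluster of genes, did not pass the test. Npc2d had 257, 343 and 384 CPM in female replicates 1 to 3, against 248, 273 and 542 CPM in male replicates 1 to 3. The sexes overlapped, and male replicate 3 stood far above the other male libraries. The log2 fold change was -0.11 ± 0.29 (95% interval -0.78 to 0.55, edgeR adjusted p = 0.906), and without male replicate 3 it was 0.33 ± 0.18 (edgeR adjusted p = 0.344). The ratio of Npc2e to Npc2d counts within a library, which does not depend on library scaling, was 0.561, 0.404 and 0.435 in females, against 0.376, 0.168 and 0.0829 in males. This ratio was picked after the values had been seen and is given without a test. It was higher in every female library than in any male library, and it varied more among the males.

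Npc2c, the third gene of that cluster, was low on average and very uneven between libraries of the same sex. It had 2, 0 and 89 counts in female replicates 1 to 3, against 128, 0 and 24 counts in male replicates 1 to 3. In each sex, then, 1 library was at 0 counts, which allows up to 3 counts (0.0902 CPM in female replicate 2 and 0.0950 CPM in male replicate 2), while female replicate 3 and male replicate 1 held most of the counts of their sex. The log2 fold change of -0.59 ± 2.06 had a 95% interval of -5.77 to 4.59 (edgeR adjusted p = 0.933), so the data do not fix its direction. Libraries of similar depth lay far apart, as male replicates 1 and 2 show. Within the same libraries the neighbours Npc2d and Npc2e had at least 6206 and 1509 counts.

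Npc2f, the other highly abundant member, had a lower mean in females and did not pass the test. Npc2f had 269, 301 and 360 CPM in female replicates 1 to 3, against 308, 398 and 531 CPM in male replicates 1 to 3. Male replicate 1 lay below female replicate 3, and male replicate 3 was the highest library. The log2 fold change was -0.41 ± 0.20 (0.752-fold, 95% interval of the log2 value -0.86 to 0.04, edgeR adjusted p = 0.288), and without male replicate 3 it was -0.19 ± 0.17 (edgeR adjusted p = 0.624). Accessory gland and testis markers were also highest in male replicate 3. That library was the lowest of Npc2e as well, at 44.9 CPM, close to the 46.0 CPM of male replicate 2. The part of these organs in the values of Npc2d, Npc2e, Npc2f and the other members was not tested.

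**Figure D3:**
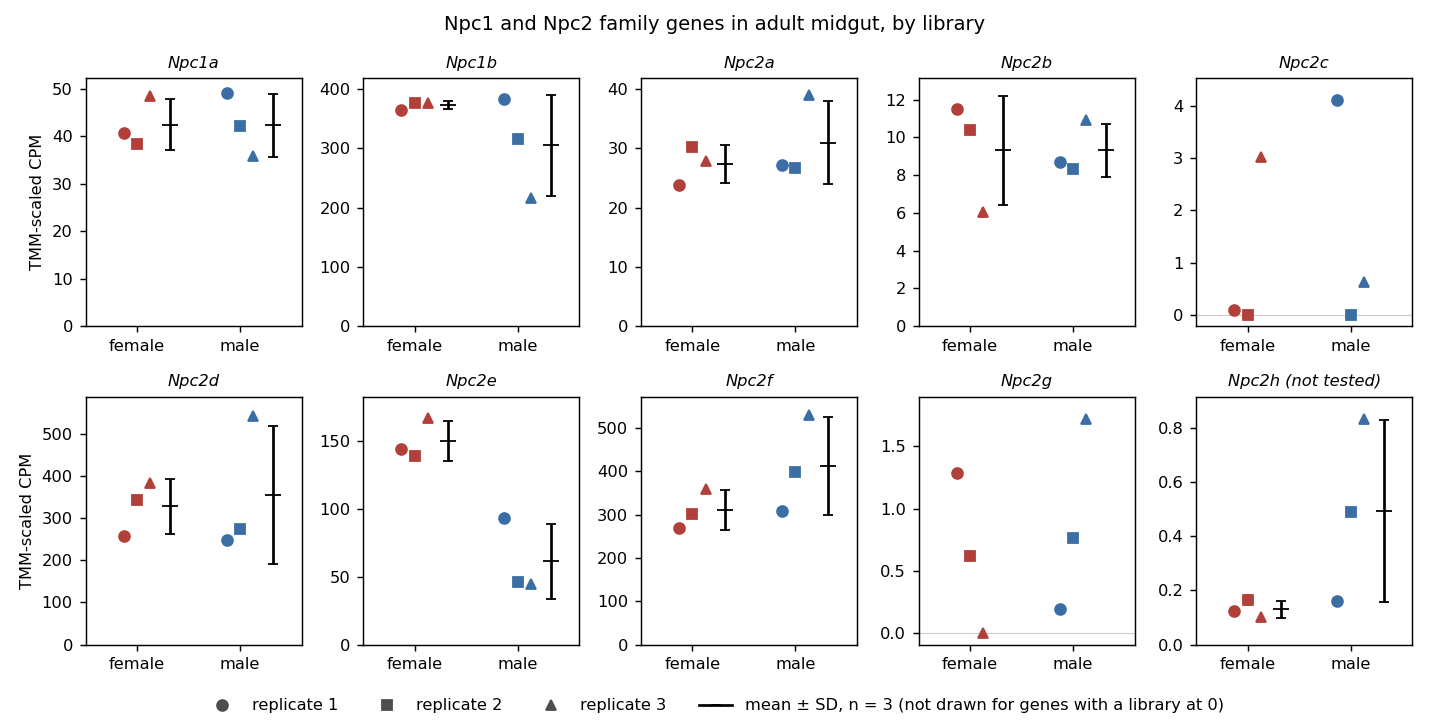
TMM-scaled CPM of each gene by library, females left and males right in each panel, with the mean ± SD (n = 3) beside the libraries except for genes with a library at 0; each panel has its own axis. The female libraries of Npc2e (139 to 167 CPM) all lie above the male ones (44.9 to 93.2 CPM). Male replicate 3 is the highest library of Npc2a, Npc2d, Npc2f, Npc2g and Npc2h, and the lowest of Npc1a, Npc1b and Npc2e.

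Npc2a and Npc2b, which act redundantly in sterol balance and in the supply of sterol for the moulting hormone ecdysone, had similar means in the sexes. Npc2a had 23.8, 30.2 and 27.9 CPM in female replicates 1 to 3, against 27.2, 26.8 and 39.1 CPM in male replicates 1 to 3. Its log2 fold change was -0.18 ± 0.18 (95% interval -0.57 to 0.21, edgeR adjusted p = 0.655), and its sign changed without male replicate 3 (0.019). Npc2b had 11.5, 10.4 and 6.05 CPM in female replicates, against 8.70, 8.32 and 10.9 CPM in male replicates. Its female libraries spanned the whole range of the males, with a log2 fold change of 0.00 ± 0.25 (95% interval -0.55 to 0.54, edgeR adjusted p = 0.997). On the linear scale the intervals ran from 0.674-fold to 1.15-fold for Npc2a and from 0.683-fold to 1.46-fold for Npc2b, and differences within them cannot be told from none.

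Npc2g and Npc2h, the second pair of neighbours, were scarcely detected in the midgut. Npc2g had 31, 19 and 0 counts in female replicates 1 to 3, against 6, 25 and 66 counts in male replicates 1 to 3, and its log2 fold change of -0.51 ± 1.10 had a 95% interval of -2.97 to 1.94 (edgeR adjusted p = 0.875). The 0 in female replicate 3 allows up to 0.103 CPM. Npc2h, reported to bind bacterial cell wall components like Npc2e, had 3, 5 and 3 counts in females, against 5, 16 and 32 counts in males. It did not pass the filter on low counts and was not tested. Female replicate 2 (0.164 CPM) lay just above male replicate 1 (0.161 CPM), so the sexes overlapped, and all 3 female values were at or close to the floor of 3 counts, which is 0.0781 to 0.126 CPM over the libraries.

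Summed over the family, Npc2 transcripts overlapped between the sexes. The summed Npc2 counts came to 707, 824 and 948 CPM in female replicates 1 to 3, against 689, 754 and 1171 CPM in male replicates 1 to 3. The means were 826 ± 121 CPM in females and 871 ± 262 CPM in males (exact two-sided permutation p = 0.9, n = 3 each; the smallest p this design allows is 0.1, so it could not reach 0.05). The difference, -44.8 CPM, turned to 105 CPM without male replicate 3 and to 14.9 CPM without female replicate 1.

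Npc2d, Npc2e and Npc2f together made up 94.2% to 96.1% of Npc2 counts in every library. Npc2e held 20.4%, 16.8% and 17.6% of Npc2 counts in female replicates 1 to 3, against 13.5%, 6.10% and 3.83% in male replicates 1 to 3. Npc2f held 38.0%, 36.5% and 38.0% in females, against 44.7%, 52.8% and 45.4% in males. For both genes the shares of the sexes did not overlap, with Npc2e higher and Npc2f lower in females. Npc2d held 36.4% to 41.6% in females and 36.0% to 46.3% in males, which overlapped. These shares sum to a whole, so they are not independent of each other, and they are given without a test.

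**Figure D4:**
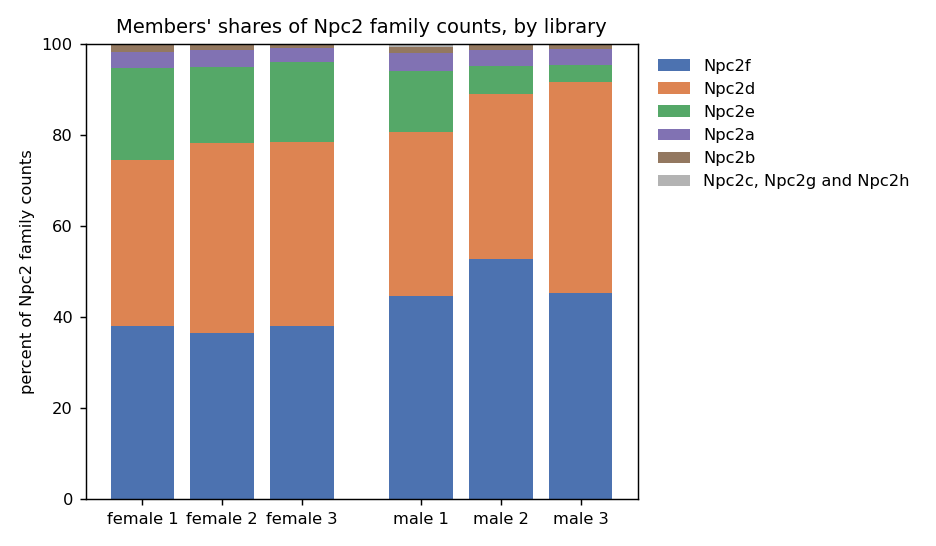
Share of each gene in the counts of the Npc2 family, in percent, with 1 bar per library, females left and males right. Npc2e takes 16.8% to 20.4% in female libraries and 3.83% to 13.5% in male libraries.

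Npc1b, the Npc1 gene needed in the fly midgut for the uptake of dietary sterol, was the dominant Npc1 gene in both sexes. Npc1b had 365, 376 and 377 CPM in female replicates 1 to 3, against 384, 315 and 216 CPM in male replicates 1 to 3. The female libraries differed little, with a coefficient of variation of 1.79%, against 27.7% among the males, where replicate 1 lay above all females and replicate 3 was lowest. The log2 fold change was 0.29 ± 0.20 (1.22-fold, 95% interval 0.908 to 1.65, edgeR adjusted p = 0.467), and without male replicate 3 it was 0.09 ± 0.15 (edgeR adjusted p = 0.806). The data therefore do not separate the sexes for Npc1b, and a female level up to 1.65-fold that of males lies within the interval.

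Npc1a, the Npc1 gene of most other tissues, which frees sterol from endosomes and lysosomes, had almost equal means. It had 40.7, 38.4 and 48.5 CPM in female replicates 1 to 3, against 49.1, 42.1 and 35.8 CPM in male replicates 1 to 3. The log2 fold change was 0.01 ± 0.16 (95% interval -0.34 to 0.35, edgeR adjusted p = 0.990). Its sign changed with no scaling beyond the library total, so no direction is given.

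Per kilobase of exon, Npc1b exceeded Npc1a in every library, by 11.8, 12.9 and 10.2 times in female replicates 1 to 3 and by 10.2, 9.80 and 7.89 times in male replicates 1 to 3. The means of the within-library log2 ratio of counts were 3.14 ± 0.17 in females and 2.82 ± 0.20 in males. This difference of 0.32 had an exact two-sided permutation p of 0.2 (n = 3 each; the smallest p this design allows is 0.1, so the test could not reach 0.05). Without male replicate 3 the difference was 0.21, and when each library was left out in turn it ran from 0.21 to 0.41. The lowest female ratio lay just below the highest male ratio. The summed Npc1 counts were 416 ± 9.97 CPM in females and 347 ± 91.2 CPM in males (exact two-sided permutation p = 0.4, n = 3 each), a difference of 68.4 CPM that was 20.5 CPM without male replicate 3 and 111 CPM without male replicate 1.

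The genes whose log2 CPM followed Npc1b and Npc2f most closely over the 6 libraries were looked up among 5626 genes with a mean of at least 10 CPM. For Npc1b they were CG14722, Cul2 and wrd, with Pearson r of 0.992, 0.988 and 0.987. For Npc2f they were Ranbp16, CG12926 and Alp9, with r of 0.995, 0.980 and 0.978. An r over 0.95 was reached by 18 genes with Npc1b and by 8 with Npc2f. How many of the 5626 genes would reach it by chance over 6 libraries was not worked out, so these counts are only a description. The points share libraries and depth, and male replicate 3 is at an end of both patterns.

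The other genes that handle sterols and lipoproteins, or work in the lysosome, were read from the same fit in 7 lists. Of 53 tested genes, 2 were higher in females (3.77%, against 3.87% of all tested genes) and 6 were lower (11.3%, against 5.53%). The lists were chosen with earlier results of these data known, so these shares are a description and no excess was tested. Without male replicate 3 the counts were 2 and 6 as well, against 4.21% and 5.63% of all tested genes in that fit. The other alternatives were not counted for the lists as a whole. In some of them CG7227 and CG31741 lost their calls, and CG8112 and mag each gained one, as given below. The median log2 fold change was -0.06 over the 53 genes. Of the 8 genes called with all libraries, 4 belong to the CD36-type receptors, and the others are LRP1, ptc, shd and Gba1a.

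In the list of sterol regulation and storage, 0 of 10 genes passed in edgeR, with a median log2 fold change of 0.14. The list holds Hr96, a nuclear receptor that senses sterol and controls genes of sterol uptake, which had 69.1, 77.8 and 68.3 CPM in females and 71.9, 62.6 and 61.5 CPM in males (log2 0.14 ± 0.13, edgeR adjusted p = 0.641). The smallest p was that of CG8112, a homologue of the acyltransferase that esterifies sterols for storage, with 60.9 ± 9.70 CPM in females and 36.3 ± 11.3 CPM in males (log2 0.75 ± 0.22, edgeR adjusted p = 0.0652). It passed in DESeq2 (adjusted p = 0.0145) and in edgeR without male replicate 1 (adjusted p = 0.0285). All 2229 exon bases of CG8112 are shared with Cks85A on the opposite strand, so its value is uncertain. mag, which codes for a secreted midgut lipase that also splits sterol esters, had 2605, 2950 and 2684 CPM in females and 1727, 2167 and 1940 CPM in males. No male library of mag reached a female one, but the difference did not pass in edgeR (log2 0.50 ± 0.16, adjusted p = 0.0789); it did in DESeq2 (adjusted p = 0.00464). Hr96 and mag were named after their values were seen, as were spok, phtm and dib below.

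Among 6 tested genes of lipoprotein transport, LRP1, a large receptor of the low-density lipoprotein receptor family, was lower in females and 5 did not pass. It had 6.13, 6.44 and 4.72 CPM in female replicates, against 25.8, 26.8 and 19.8 CPM in male replicates, with no overlap (log2 -2.06 ± 0.19, edgeR adjusted p = 0.00011). Of 5 other genes with a sterol-sensing domain, ptc, the Hedgehog receptor, was lower in females and 4 did not pass. It had 39.9, 36.0 and 34.2 CPM in female replicates and 78.1, 92.5 and 56.9 CPM in male replicates, without overlap (log2 -1.05 ± 0.18, edgeR adjusted p = 0.00381). Of 4 oxysterol-binding protein genes 0 passed in edgeR; the smallest p was that of CG3860 (log2 0.19 ± 0.12, edgeR adjusted p = 0.439).

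Genes of ecdysteroid synthesis, for which sterols are the starting material, had few or no counts for the most part. Of 8 matched genes 2 were expressed enough to be tested, and spok, phtm and dib had 0 counts in every library. shd, whose product converts ecdysone to its active form in peripheral tissues, was higher in females, with 23.2, 16.9 and 24.1 CPM in female replicates against 4.59, 6.46 and 5.44 CPM in male replicates. The libraries did not overlap (log2 1.96 ± 0.20, edgeR adjusted p = 0.000195).

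The CD36-type scavenger receptors, membrane proteins that take up lipids and carotenoids, were tested for 14 genes. Of these 1 was higher in females and 3 were lower, against 3.87% and 5.53% of all tested genes, and 1 of the 3, CG31741, lost its call under 6 of 13 alternatives. The median log2 fold change was -0.47, and no difference between lists was tested. ninaD, needed in flies for the uptake of dietary carotenoids, had 406, 536 and 412 CPM in female replicates, against 768, 1219 and 1199 CPM in male replicates (log2 -1.23 ± 0.21, edgeR adjusted p = 0.00373). crq, a receptor known from the clearance of dead cells, had 113, 151 and 97.3 CPM in female replicates, against 268, 270 and 264 CPM in male replicates (log2 -1.15 ± 0.17, edgeR adjusted p = 0.00174); it shares 448 of 2848 exon bases with ex on the opposite strand. Both were free of overlap between the sexes.

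The other calls in that list rested on lower levels. CG7227 was higher in females, with 12.7, 9.81 and 9.75 CPM in female replicates and 2.95, 4.42 and 6.15 CPM in male replicates (log2 1.25 ± 0.27, edgeR adjusted p = 0.014), and its call was lost without female replicate 1 (0.0649) or male replicate 2 (0.0616). An antisense RNA gene covers 1501 of its 2720 exon bases. CG31741 was lower in females, with 4.49 ± 1.83 CPM in female libraries and 11.9 ± 5.23 CPM in male libraries (log2 -1.40 ± 0.37, edgeR adjusted p = 0.0453). Of 14 lysosome genes, Gba1a, which codes for a glucosylceramide-splitting enzyme, was lower in females and 13 did not pass. Gba1a had 229, 231 and 218 CPM in female replicates, against 1140, 737 and 487 CPM in male replicates (log2 -1.80 ± 0.26, edgeR adjusted p = 0.00184).

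**Figure D5:**
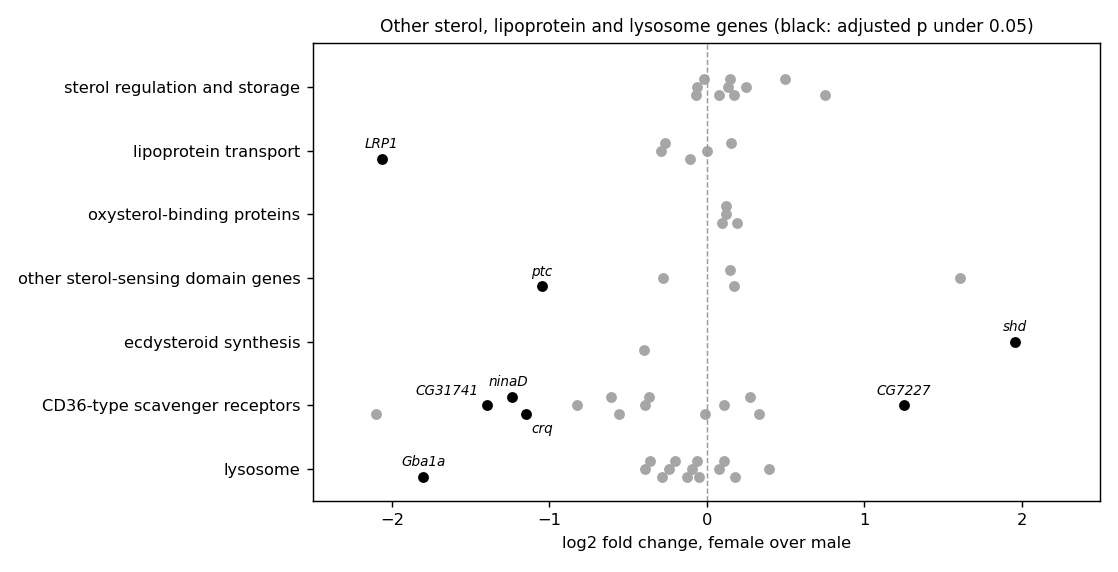
Log2 fold change, female over male, of each tested gene in 7 lists, 1 point per gene, spread up and down only to keep points apart; a gene that stands in 2 lists is drawn in both. The 8 named genes in black passed an adjusted p of 0.05, with 6 of them left of 0.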

How the data were processed

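The authors deposited raw counts, 1 whole number per gene, in 1 file for each of 6 libraries. A strand-marking messenger RNA kit was used on 500 ng of RNA and sequenced as pairs of 100 bases, per the labels' protocols. The submitters' processing notes name TopHat2 2.0.11, HTSeq and build dm3. The sources used here do not give the strand setting, the annotation release or the treatment of reads with several matches. The labels do not say whether replicates came from separate cultures; p-values therefore describe the spread of these pools, part of which may be technical. Replicates of a sex were distinct libraries (chi-square over genes, divided by its degrees of freedom, 29.8 or more).

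Symbols matched 15002 of 15682 identifiers. Exon lengths and arms came from Ensembl's BDGP6 annotation by identifier, a later build, so lengths are approximate and no coordinates are given. Genes were filtered with filterByExpr (minimum count 10, minimum total 15), scaled with TMM and compared with edgeR 4.0.16 in R 4.3.3 (quasi-likelihood test, robust, sex alone, all 6 libraries, two-sided). Alternatives were RLE factors, no scaling, filters of 1 count and of 5 CPM in 3 libraries, DESeq2 1.42.0, limma-voom (limma 3.58.1), a replicate block, and leaving out each library. The steps were also run on data simulated with the gene spreads of this same fit, and no conclusion is drawn from that here. Floors of 3 counts cover counting error only, and fold change intervals come from the fit.

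The members and lists were chosen with earlier results of these data known. Genes named in the text are the 10 members; in each list those past the threshold, else the one with the smallest p; Hr96, mag, spok, phtm and dib, added outside this rule after their values were seen; and the 3 closest in pattern to Npc1b and to the Npc2 gene of highest CPM, Npc2f. Of 61 listed genes, with synonyms of one gene merged, 59 matched; Mtp and nvd were not analysed here. Marker lists matched 49 of 54 genes.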

Additional observations from a re-analysis of the deposited data

How the results depend on the processing

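Npc2e was the only member called higher in females in the 11 alternatives that kept the call; over the fits that left out a single library the number of members called higher ran from 0 to 1, with 0 without female replicate 3 and without male replicate 3, and the log2 fold change of Npc2e from 1.11 to 1.74. Some of the kept calls lay close to the threshold. The edgeR adjusted p of Npc2e was 0.0486 with the filter of 1 count and 0.0412 without female replicate 1. It was 0.0489 without female replicate 2 and 0.0492 without male replicate 2. The number of members called lower was 0 in every alternative. Npc1b and Npc2f kept their direction in all 13 alternatives, uncalled (log2 0.09 to 0.51, and -0.57 to -0.19).

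Uncalled members changed sign. Npc1a reached -0.044 with no scaling, -0.0088 with the filter of 5 CPM, -0.10 without female replicate 3 and -0.10 without male replicate 3 (leave-one-out range -0.10 to 0.14). Npc2b reached 0.0098 with RLE, 0.01 in DESeq2, 0.23 without female replicate 3 and 0.13 without male replicate 3 (range -0.17 to 0.23). Without male replicate 3, Npc2a was 0.019 (range -0.28 to 0.019), Npc2d 0.33 (range -0.30 to 0.33) and Npc2g 0.39 (range -1.50 to 0.39). Npc2d was 0.04 without female replicate 1, Npc2g 0.08 without female replicate 3, and Npc2c 1.70 without male replicate 1 (range -5.24 to 1.70). The summed Npc2 difference ran from -136 to 105 CPM when a library was left out, and was 14.9 CPM without female replicate 1. The cause of these changes was not tested.

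In same-numbered libraries of the sexes the deviations from the group means correlated at -0.12, -0.20 and -0.10 over genes. Libraries of different number gave -0.066 to 0.218. These values show no pairing by number, but 3 libraries of each sex are too few to decide it. With the replicate number as a block Npc2e was called as well (log2 1.37, edgeR adjusted p = 0.00492), as the single member, and over all genes 261 were higher and 415 lower in females, against 346 and 494 without the block. DESeq2 called 552 genes higher and 657 lower. Without female replicates 1 to 3 in turn the number higher was 171, 231 and 219, and without male replicates 1 to 3 it was 419, 164 and 383. With the block CG8112 also passed (edgeR adjusted p = 0.0332). At 3 to 32 counts a library, Npc2h was too low to test at this depth; Npc2c and Npc2g varied widely between libraries, and no sex difference was detectable in them. The filter of 5 CPM left Npc2c and Npc2g untested.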
